A study of Homo sapiens with 15 samples.

Results

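DNA replication and S-phase genes were followed through the co-culture of lung fibroblasts with small cell lung cancer (SCLC) cells. The 39 genes were taken by symbol from the deposited tables, and were chosen with earlier results of these data known. All 39 were listed in both tables and passed the filter on low counts, among 16382 genes listed for MRC5 cells and 16076 for H196 cells. The fibroblasts were of the human lung line MRC5. The cancer lines were H69, which is neuroendocrine, and H196, which is not. The group MRC5_Mo held fibroblasts in mono-culture, MRC5_CoH69 those that shared a well with H69, and MRC5_CoH196 those that shared one with H196. For the cancer side, H196_Mo was the mono-culture of H196 and H196_Co its co-culture with the fibroblasts. Co-cultured cells shared medium through a transwell insert for about a week, and the labels name no drug or genetic change. The authors grew SCLC lines in RPMI medium and MRC5 cells in MEM, and do not name the medium of the co-cultures. A part of medium in the differences was not tested. By the authors' methods, inducing cells sat in the insert and induced cells in the plate. MRC5_CoH196 and H196_Co therefore need not come from the same wells. Each of the 5 groups has 3 libraries, and each cell type is a single line. The labels do not say whether the libraries of a group came from separate cultures, so the p-values measure the spread between these libraries, which may be technical. H69 cells themselves were not analysed here.

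Before a cell copies its DNA, the origin recognition complex and the loading factors CDC6 and CDT1 place the MCM2-7 helicase on replication origins, a step called licensing. At the start of S phase, CDC45 and the GINS complex join MCM2-7 to form the active helicase, and primase, the DNA polymerases and the sliding clamp PCNA copy both strands. Most of these genes are targets of the E2F transcription factors, which are released when cyclin-dependent kinases inactivate RB, so their mRNA levels are widely read as a sign of cells in cycle. In bulk RNA, fewer cycling cells and less of these mRNAs in each cell cannot be told apart.

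The members were lower in MRC5 cells grown with H196 cells than in MRC5 cells grown alone, almost without exception. Of the 39 members, 37 fell, 1 rose (CDT1) and 1 was not called (CCNE1), at a Benjamini-Hochberg adjusted p under 0.05 over all genes tested. The call was frequent in this comparison, since 37.1% of all 12819 genes tested were lower and 37.2% were higher. With an absolute log2 fold change above 0.58 required as well, 27 members were lower and 0 were higher, against 14.7% and 17.2% of all genes. The median log2 fold change of the members was -0.75, that is 1.69-fold lower, against -0.003 over all genes, of which 9.45% lay below the members' median. Summed over the 39 members, the level was 830, 915 and 963 FPKM (the authors' expression unit, scaled by gene length and mapped fragments) in the MRC5_Mo libraries. It was 487, 469 and 457 FPKM in MRC5_CoH196. The groups did not overlap in this sum, nor in the TMM-scaled counts of 37 of the members, all lower in MRC5_CoH196 (37.9% of all genes were lower without overlap).

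**Figure D1:**
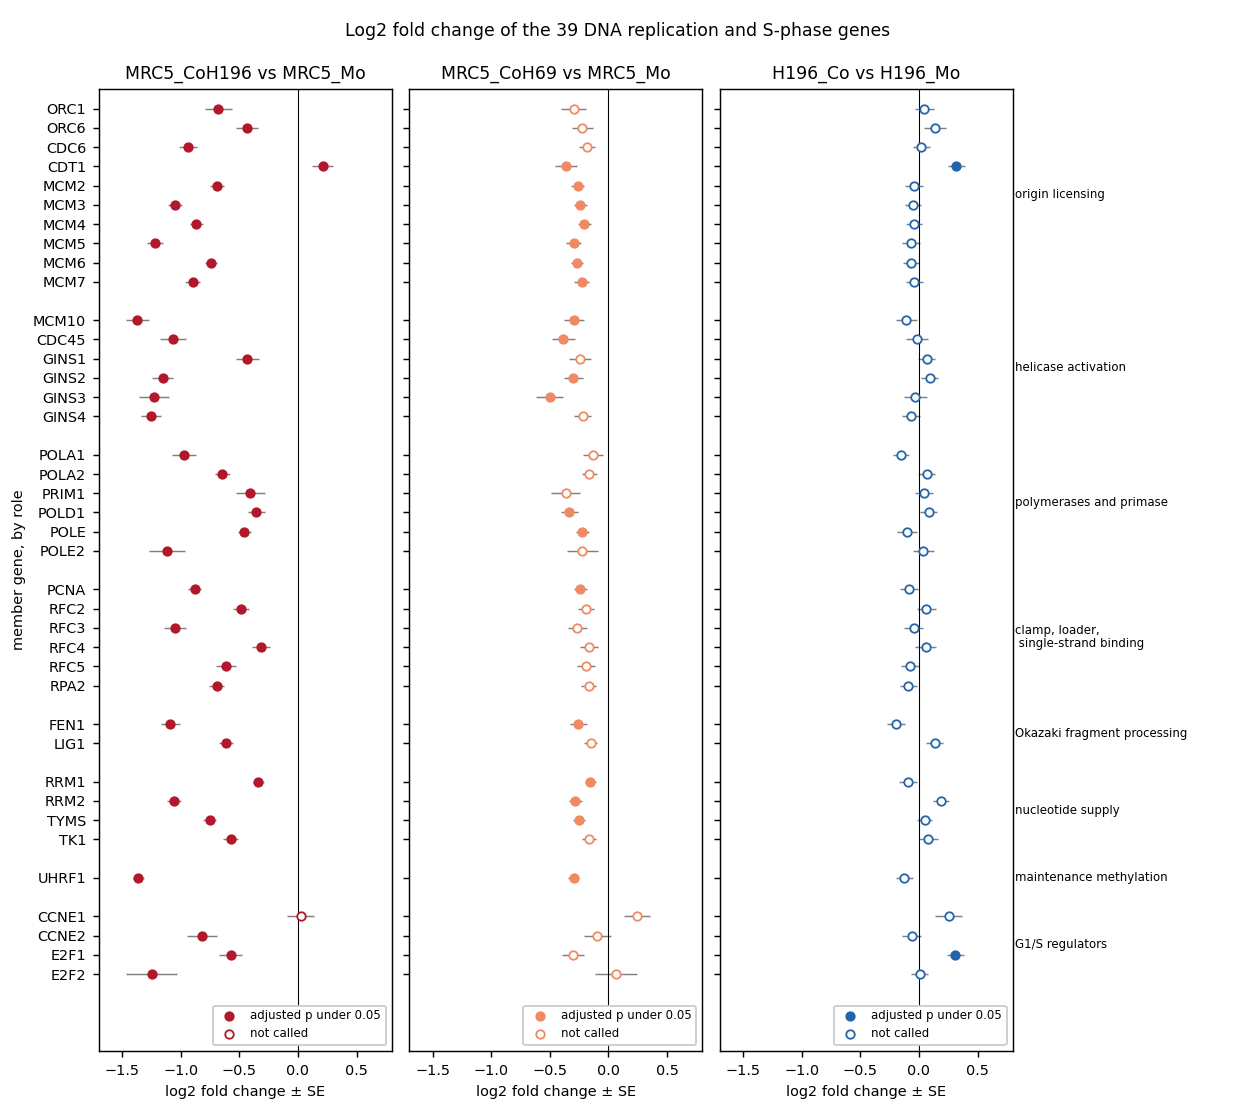
Log2 fold change with its standard error (x axis) of each of the 39 members (y axis, grouped by role) in 3 comparisons, with filled points for an adjusted p under 0.05. In MRC5_CoH196 against MRC5_Mo 37 members lie to the left of 0 and are called, in MRC5_CoH69 against MRC5_Mo 19 are, and in H196_Co against H196_Mo the only called members, CDT1 and E2F1, lie to the right.

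Stretches of the promoters of some members are shown, where a search found the letters that E2F factors are known to bind. The search used TTTCCCGC, TTTCGCGC, TTTGCCGC and TTTGGCGC on both strands, in windows from 250 bases before to 50 after each RefSeq transcript start (GRCh38.p14). Of the 34 members with an entry in this table, 20 (58.8%) had a match in at least 1 window, against 3.99% of the 27305 genes with an entry. MCM5, RPA2, MCM4, CCNE2 and GINS4 have no entry. The CCAAT letters, another motif frequent in promoters of cell cycle genes, were in a window of 58.8% of these members and of 39.7% of all genes. A match describes the letters and is not evidence of binding. The list is one of S-phase genes, most of them known E2F targets. Its share above that of all genes came with that choice and is not a result of the co-culture. The stretches below end at the base before the start, run 5′ to 3′ on the strand of the gene and carry the matches in capitals. In MCM6, whose stretch is 160 bases long and the others 100, matches on the 2 strands overlap, which gives 4 matches at 2 places.
MCM6, chr2:135876444-135876603 (-): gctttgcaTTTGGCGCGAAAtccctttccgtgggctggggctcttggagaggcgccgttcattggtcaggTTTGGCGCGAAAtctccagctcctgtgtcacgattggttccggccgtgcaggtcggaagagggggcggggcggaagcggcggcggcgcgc
UHRF1, chr19:4909401-4909500 (+): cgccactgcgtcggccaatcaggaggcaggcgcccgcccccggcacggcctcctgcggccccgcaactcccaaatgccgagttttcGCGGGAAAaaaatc
PCNA, chr20:5126623-5126722 (-): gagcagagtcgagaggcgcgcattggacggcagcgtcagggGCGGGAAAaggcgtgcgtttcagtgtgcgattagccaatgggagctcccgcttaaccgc
RFC3, chr13:33818049-33818148 (+): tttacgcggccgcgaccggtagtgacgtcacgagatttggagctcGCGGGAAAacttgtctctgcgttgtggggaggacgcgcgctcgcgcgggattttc
TYMS, chr18:657553-657652 (+): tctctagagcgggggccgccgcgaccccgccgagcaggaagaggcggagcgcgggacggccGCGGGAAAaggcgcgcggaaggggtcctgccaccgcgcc
E2F1, chr20:33686386-33686485 (-): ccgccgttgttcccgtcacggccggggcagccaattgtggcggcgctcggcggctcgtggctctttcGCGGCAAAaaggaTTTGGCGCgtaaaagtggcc
E2F2, chr1:23531234-23531333 (-): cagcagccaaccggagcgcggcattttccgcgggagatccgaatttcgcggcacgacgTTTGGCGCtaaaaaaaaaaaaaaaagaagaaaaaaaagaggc
CDT1, chr16:88803689-88803788 (+): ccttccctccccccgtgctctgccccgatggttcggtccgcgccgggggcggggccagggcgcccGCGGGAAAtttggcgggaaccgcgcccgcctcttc
The first 7 belong to genes that fell in MRC5_CoH196, and the last to CDT1, which rose. No match was found in the windows of MCM10, RRM2, FEN1, TK1 and CCNE1. The median log2 fold change in MRC5_CoH196 was -0.89 over the 20 members with a match (range -1.36 to 0.21) and -0.53 over the 14 without (range -1.37 to 0.02), a description with no test.

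Total counts ranged from 18476890 to 19170560 in the MRC5 libraries and from 16073597 to 17358349 in the H196 libraries. The members had from 16 counts (E2F2 in MRC5_CoH196) to 15327 counts (in H196_Mo) per library. Each of 10 fibroblast markers exceeded 1 CPM (counts scaled to library size) in all MRC5 libraries, with a sum of 34080 to 37740 CPM in MRC5_Mo, 38650 to 39460 in MRC5_CoH69, 21100 to 22040 in MRC5_CoH196 and 68.7 to 74.1 in H196_Mo. Most of the list did not follow that sum: in MRC5_CoH196 against MRC5_Mo, 6 of the 10 rose and 3 fell, with a median of 0.23. A wider set of 160 genes chosen for a high level in MRC5_Mo and almost none in H196_Mo summed to 36160 to 39250 CPM in MRC5_Mo and 35850 to 36940 in MRC5_CoH196. Of 10 neuroendocrine markers none exceeded 1 CPM throughout a group of MRC5 libraries, and 4 did in H196_Mo. Genes chosen for a high level in H196_Mo and almost none in MRC5_Mo (99 genes) reached 0.298% to 0.777% of their H196_Mo level in MRC5_CoH196, against 0.118% to 0.130% in MRC5_Mo. The part of the lower fibroblast marker sum in the members' values was not tested. If the highest of these shares were H196 RNA, it would hold a median of 4.39% of the members' level in MRC5_CoH196, at most 40.5% (E2F2) and 9.32% for the next. The mean FPKM of every member but RRM1 was higher in H196_Mo than in MRC5_Mo. Whether these 99 genes came from H196 RNA or from the MRC5 cells themselves was not tested. MRC5_Mo replicate 1 was the lowest MRC5_Mo library in FPKM for 34 of the 39 members and replicate 3 the highest for 26.

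Counts by role in MRC5_CoH196, here and below, stand beside 37.1% of all genes lower and 37.2% higher. Among the 10 origin licensing genes, 9 fell in MRC5_CoH196, with a median of -0.80 over the 10. MCM5 (chr22:35400133-35455356, GRCh38.p13), a subunit of the MCM2-7 helicase, changed most. Its level was 27.5, 30.0 and 33.9 FPKM in MRC5_Mo and 12.0, 11.8 and 11.0 FPKM in MRC5_CoH196. All MRC5_CoH196 libraries lay far below all MRC5_Mo libraries, with a log2 fold change of -1.22 ± 0.07 (SE, adjusted p = 2.66e-14). MCM2, another helicase subunit, had 18.0, 20.3 and 21.3 FPKM in MRC5_Mo and 11.0, 11.2 and 10.5 FPKM in MRC5_CoH196. These groups were also apart, by a smaller step of -0.69 ± 0.06 (adjusted p = 9.91e-11). The other helicase subunits fell by 0.74 (MCM6) to 1.05 (MCM3) on the log2 scale, so that all 6 moved in the same direction by unequal amounts. CDC6, the ATPase that loads MCM2-7 onto origins, had 7.65, 8.86 and 9.28 FPKM in MRC5_Mo against 4.01, 3.51 and 4.03 FPKM in MRC5_CoH196. It fell by 0.94 ± 0.08 (adjusted p = 9.50e-11), without overlap. The origin recognition subunits ORC1 and ORC6 fell by 0.68 and 0.43.

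CDT1, which brings MCM2-7 to origins together with CDC6, went against the other licensing genes. Its level was 7.78, 8.06 and 10.5 FPKM in MRC5_Mo, 6.76, 6.87 and 6.66 FPKM in MRC5_CoH69 and 9.57, 8.13 and 9.31 FPKM in MRC5_CoH196. The first and the last of these groups overlapped, and the MRC5_CoH69 libraries lay below both. CDT1 rose in MRC5_CoH196 by 0.21 ± 0.09 against MRC5_Mo (adjusted p = 0.0383) and by 0.58 ± 0.09 against MRC5_CoH69 (adjusted p = 6.87e-06), and fell in MRC5_CoH69 by 0.36 ± 0.09 (adjusted p = 0.0194). The rise against MRC5_Mo was not called with DESeq2 (adjusted p = 0.0668), with limma on log2(FPKM + 1) (0.04, adjusted p = 0.704), in a fit of the 2 groups alone (adjusted p = 0.0539), nor without MRC5_CoH196 replicate 1 (0.16, adjusted p = 0.164) or 3 (0.18, adjusted p = 0.122) or MRC5_Mo replicate 1 (0.13, adjusted p = 0.21) or 2 (0.15, adjusted p = 0.184). Without MRC5_Mo replicate 3 it was 0.36. The fall in MRC5_CoH69 was not called with limma on log2(FPKM + 1) (adjusted p = 0.0911) nor without MRC5_Mo replicate 3 (-0.22, adjusted p = 0.219) or MRC5_CoH69 replicate 1 (adjusted p = 0.0621) or 3 (adjusted p = 0.0732). The difference between the co-cultures was called in every refit made of it, from 0.36 to 0.66.

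**Figure D2:**
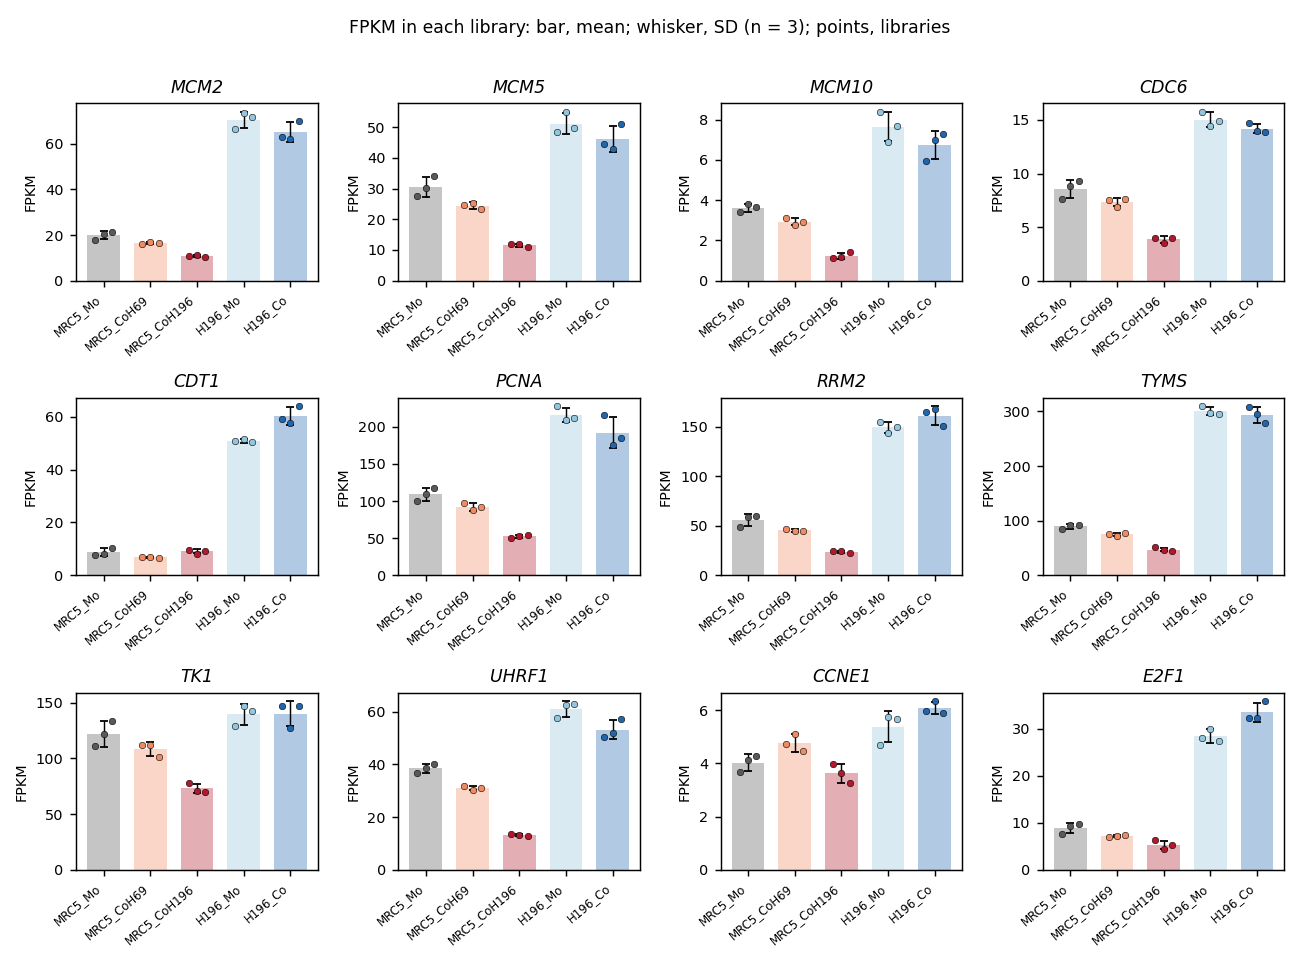
FPKM (y axis, from 0) of 12 members in each library of the 5 groups (x axis), with bars for the mean, whiskers for the SD (n = 3) and points for the libraries. MRC5_CoH196 is the lowest group in 10 of the panels apart from CDT1, where it is the highest MRC5 group, and CCNE1, where it overlaps MRC5_Mo, and the means of the H196 groups are the highest in each panel.

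All 6 genes of helicase activation fell in MRC5_CoH196, with the lowest median among the role groups of more than 1 gene, -1.19. MCM10, a scaffold that is needed to start the loaded helicase, showed the largest fall of any member by edgeR. It was within its error of the fall of UHRF1 (-1.36 ± 0.05). Over the other tests and filters MCM10 ran from -1.48 to -1.05 and UHRF1 from -1.53 to -1.36. MCM10 had 3.41, 3.79 and 3.65 FPKM in MRC5_Mo and 1.11, 1.19 and 1.41 FPKM in MRC5_CoH196. The levels were well apart, at -1.37 ± 0.10 (adjusted p = 7.67e-12), that is 2.58-fold lower. CDC45 fell by 1.07 and the GINS subunits GINS2, GINS3 and GINS4 by 1.15, 1.23 and 1.25. GINS1, a subunit of the same complex, fell by 0.43 ± 0.10 (adjusted p = 0.000456).

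The genes of the polymerases and primase all fell, from 0.35 for POLD1 to 1.12 for POLE2, with a median of -0.55. POLE2, the second subunit of the leading-strand polymerase, had 3.89, 4.35 and 3.75 FPKM in MRC5_Mo and 1.51, 2.0 and 1.35 FPKM in MRC5_CoH196. The groups did not overlap, and the change was -1.12 ± 0.15 (adjusted p = 4.26e-07). POLE, the catalytic subunit of the same enzyme, fell by 0.46 ± 0.06. POLA1, the catalytic subunit of the polymerase that extends primers, fell by 0.97 ± 0.10, from 2.92, 2.94 and 3.58 FPKM to 1.49, 1.29 and 1.49 FPKM. Its partner POLA2 fell by 0.65 and the primase subunit PRIM1 by 0.41.

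The clamp, its loader and single-strand binding were lower too, with 6 of 6 called and a median of -0.65. PCNA (chr20:5114953-5126622), the clamp that holds polymerases on DNA, is among the most abundant members. It had 101, 109 and 117 FPKM in MRC5_Mo and 50.6, 53.0 and 53.6 FPKM in MRC5_CoH196, so that the highest MRC5_CoH196 library lay well below the lowest MRC5_Mo library. The change was -0.88 ± 0.05 (adjusted p = 2.49e-13), 1.84-fold lower. RFC3, a subunit of the clamp loader, had 10.7, 11.4 and 11.0 FPKM in MRC5_Mo and 6.78, 4.17 and 4.26 FPKM in MRC5_CoH196. MRC5_CoH196 replicate 1 stood above the other two in FPKM, and the change was -1.05 ± 0.09 (adjusted p = 1.91e-10). The other loader subunits fell by 0.61 (RFC5), 0.49 (RFC2) and 0.32 (RFC4). RPA2, which coats single-stranded DNA, fell by 0.69 ± 0.07, from 21.8, 21.0 and 21.6 FPKM to 12.4, 11.3 and 11.7 FPKM. Of the pair that finishes Okazaki fragments, the flap nuclease FEN1 fell by 1.09 ± 0.08, from 21.6, 26.2 and 26.0 FPKM to 11.2, 10.4 and 9.21 FPKM, and the ligase LIG1 by 0.62 ± 0.06.

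The 4 genes of nucleotide supply fell by unequal amounts. RRM2, the small subunit of ribonucleotide reductase and the one made mainly in S phase, had 48.9, 58.8 and 59.6 FPKM in MRC5_Mo and 24.3, 24.3 and 22.6 FPKM in MRC5_CoH196. It fell by 1.06 ± 0.06 (adjusted p = 3.01e-14), with a wide gap between the groups. RRM1, the large subunit, fell by 0.34 ± 0.05 (adjusted p = 6.50e-07). TYMS, thymidylate synthase, had 84.2, 91.3 and 93.0 FPKM in MRC5_Mo and 50.9, 45.6 and 44.7 FPKM in MRC5_CoH196, a change of -0.75 ± 0.05. TK1, thymidine kinase of the salvage route, had 111, 122 and 134 FPKM and then 78.0, 71.0 and 70.1 FPKM, a change of -0.57 ± 0.06. Neither pair of groups overlapped.

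UHRF1 (chr19:4903080-4973238), which guides the methylation of newly copied DNA, had the smallest p of the members. Its level was 36.6, 38.6 and 40.1 FPKM in MRC5_Mo, 31.7, 30.2 and 30.9 FPKM in MRC5_CoH69 and 13.5, 13.3 and 12.9 FPKM in MRC5_CoH196. The 3 groups were fully apart. The change in MRC5_CoH196 was -1.36 ± 0.05 (adjusted p = 3.32e-18), 2.57-fold lower.

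Among the G1/S regulators 3 of 4 fell, beside 37.1% of all genes lower and 37.2% higher. CCNE1 and CCNE2 encode the E-type cyclins that drive entry into S phase, and they parted. CCNE1 had 3.67, 4.12 and 4.28 FPKM in MRC5_Mo, 4.72, 5.12 and 4.47 FPKM in MRC5_CoH69 and 3.97, 3.66 and 3.27 FPKM in MRC5_CoH196. The MRC5_CoH196 and MRC5_Mo libraries overlapped, and the difference was 0.02 ± 0.12 (adjusted p = 0.874). CCNE2 had 3.17, 3.53 and 4.14 FPKM in MRC5_Mo and 1.55, 2.15 and 1.72 FPKM in MRC5_CoH196, and fell by 0.82 ± 0.13 (adjusted p = 2.85e-06) without overlap. E2F1, an activating E2F factor, had 7.69, 9.37 and 9.75 FPKM in MRC5_Mo and 6.24, 4.41 and 5.28 FPKM in MRC5_CoH196. It fell by 0.57 ± 0.10 (adjusted p = 1.46e-05), with replicate 1 of MRC5_CoH196 nearest to MRC5_Mo. E2F2, a related activator, was scarce in MRC5 cells, with 46, 55 and 48 counts in MRC5_Mo and 22, 18 and 16 counts in MRC5_CoH196. It fell by 1.25 ± 0.22 (adjusted p = 1.34e-05), the widest error of any member in this comparison. With limma on log2(FPKM + 1), where the pseudocount exceeds its level, the value was -0.35 (adjusted p = 0.000612).

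Co-culture with H69 cells gave smaller differences in the same direction. Of the 39 members 19 fell, 0 rose and 20 were not called, against 2.93% of all genes lower and 3.78% higher. At an unadjusted p under 0.05 in either direction there were 35 members, against 20.1% of all genes, and CCNE1 among them was higher. The log2 fold change was negative in 37 members, with a median of -0.24 (1.18-fold lower), and 5.32% of all genes lay below that median. Beyond the fold change limit of 0.58 there were 0 members, against 0.133% of all genes lower and 0.421% higher. The summed level of the members was 781, 763 and 751 FPKM, below each MRC5_Mo library, with a narrow gap to MRC5_Mo replicate 1. TMM-scaled counts of 29 members were lower than in MRC5_Mo without overlap, against 12.1% of all genes. The comparison uses the same MRC5_Mo libraries as the one with H196 cells, so the 2 are not independent. Without MRC5_Mo replicate 3 the calls dropped to 5 members (MCM5, MCM6, RRM2, TYMS and UHRF1), with 0.982% of all genes lower, and without MRC5_Mo replicate 2 or MRC5_CoH69 replicate 3 to 10 each. Without MRC5_Mo replicate 1 there were 28.

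Counts by role in MRC5_CoH69 stand beside 2.93% of all genes lower and 3.78% higher. By role, 7 of 10 licensing genes, 4 of 6 genes of helicase activation and 3 of 4 genes of nucleotide supply fell. Of the 4 G1/S regulators 0 fell. Among the members GINS3 was lowest, at -0.50 ± 0.12 (adjusted p = 0.00787). It had 3.03, 3.16 and 2.94 FPKM against 4.23, 3.89 and 4.84 FPKM in MRC5_Mo. UHRF1 fell by 0.30 ± 0.04 (adjusted p = 9.19e-05). MCM2 had 16.0, 16.9 and 16.3 FPKM in MRC5_CoH69 and fell by 0.26 ± 0.06 (adjusted p = 0.00376). The MCM2 libraries lay below all MRC5_Mo libraries by a small margin. PCNA had 97.1, 87.3 and 91.9 FPKM and fell by 0.24 ± 0.05 (adjusted p = 0.00476), and RRM2 had 47.1, 44.3 and 44.9 FPKM and fell by 0.28 ± 0.06 (adjusted p = 0.00194). E2F1 had 7.04, 7.09 and 7.43 FPKM and missed the threshold, at -0.30 ± 0.10 (adjusted p = 0.0551). TK1 at -0.17 ± 0.06 (adjusted p = 0.103) and CDC6 at -0.18 ± 0.07 (adjusted p = 0.135) were not called either, and their libraries overlapped MRC5_Mo. CCNE1 was at 0.24 ± 0.11 (adjusted p = 0.22).

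**Figure D3:**
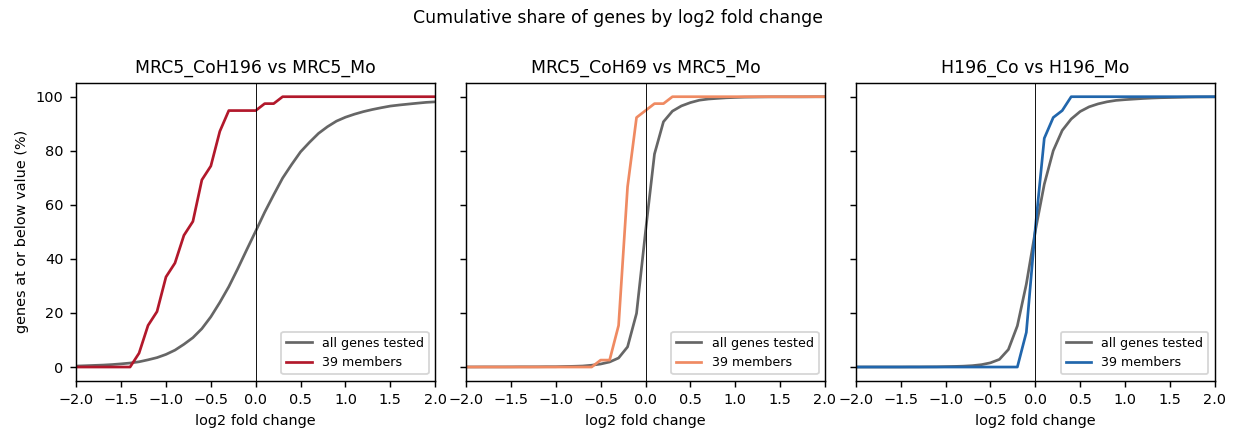
Share of genes (y axis, percent) at or below each log2 fold change (x axis, in steps of 0.1), for all genes tested and for the 39 members, in 3 comparisons. The members' line lies to the left of that of all genes in both MRC5 comparisons, around medians of -0.75 and -0.24, and crosses it near 0 in H196 cells.

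The co-cultures were then compared with each other. In MRC5_CoH196 against MRC5_CoH69, 32 members were lower, 1 was higher (CDT1) and 6 were not called, against 36.6% of all genes lower and 35.7% higher. The median was -0.52, and 19 members were lower beyond the fold limit, against 13.1% of all genes (0 higher, against 15.2%). By edgeR the largest differences were those of E2F2 at -1.31 ± 0.21 (adjusted p = 6.66e-06, and -0.40 with limma on log2(FPKM + 1)), MCM10 at -1.07 ± 0.10 (adjusted p = 1.57e-09) and UHRF1 at -1.07 ± 0.05 (adjusted p = 7.82e-16). The 6 uncalled members were ORC6, GINS1, PRIM1, POLD1, RFC4 and CCNE1, from -0.22 to -0.02. Limma on log2 FPKM called all of these but POLD1. On that scale the median of all genes was -0.14 and -0.18, with pseudocounts of 1 and 0.1. For POLD1, the catalytic subunit of a lagging-strand polymerase, the changes against MRC5_Mo were -0.35 with H196 and -0.33 with H69 cells, and the difference of the co-cultures was -0.02 ± 0.08 (adjusted p = 0.827). The E2F1 difference of -0.27 ± 0.10 (adjusted p = 0.0219) was not called without MRC5_CoH196 replicate 2 (-0.14, adjusted p = 0.217), MRC5_CoH196 replicate 3 (adjusted p = 0.0535) or MRC5_CoH69 replicate 3 (adjusted p = 0.0649).

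In H196 cells the members showed little change on co-culture with MRC5 cells. Of the 39 members 2 rose, CDT1 and E2F1, 0 fell and 37 were not called, against 12.0% of all 12806 genes higher and 7.78% lower in edgeR. At an unadjusted p under 0.05 there were 6 members, against 33.5% of all genes, and beyond the fold limit 0, against 3.26% higher and 0.601% lower. Without overlap of the groups, 5 members were higher and 2 lower, against 20.2% and 17.0% of all genes. The median was -0.02, the range ran from -0.20 (FEN1) to 0.32 (CDT1), and 20 members were negative and 19 positive. The summed level was 2384, 2357 and 2370 FPKM in H196_Mo and 2313, 2173 and 2285 FPKM in H196_Co. CDT1 had 50.7, 51.7 and 50.2 FPKM in H196_Mo and 59.1, 57.4 and 63.9 FPKM in H196_Co. The groups were apart, and CDT1 rose by 0.32 ± 0.07 (adjusted p = 0.0034). E2F1 had 28.0, 30.0 and 27.3 FPKM in H196_Mo and 32.3, 32.2 and 35.9 FPKM in H196_Co. It rose by 0.31 ± 0.08 (adjusted p = 0.00658), also without overlap, and without H196_Co replicate 3 it was not called (0.25, adjusted p = 0.0605). Limma on log2(FPKM + 1) gave 2 members higher and 2 lower, FEN1 and POLA1, on a scale where the median of all genes was at -0.06.

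The members that fell most in MRC5 cells did not pass the threshold in H196 cells. FEN1 had 43.7, 47.7 and 46.4 FPKM in H196_Mo and 38.7, 35.4 and 39.9 FPKM in H196_Co, at -0.20 ± 0.08 (adjusted p = 0.0763), and was called without H196_Mo replicate 1 (-0.25, adjusted p = 0.0473). RRM2 lay on the other side of 0, with 154, 143 and 150 FPKM in H196_Mo and 165, 168 and 150 FPKM in H196_Co, at 0.19 ± 0.07 (adjusted p = 0.0618). MCM10 was at -0.11 ± 0.09 and UHRF1 at -0.12 ± 0.07. For MCM2 the difference was -0.04 ± 0.07, for PCNA -0.09 ± 0.08, for TYMS 0.05 ± 0.07, for TK1 0.08 ± 0.08 and for CDC6 0.02 ± 0.07, all small beside the changes of the same genes in MRC5_CoH196. CCNE1 was at 0.25 ± 0.12 (adjusted p = 0.137) and CCNE2 at -0.06 ± 0.08.

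The difference between the co-culture effects in the 2 lines was tested in a fit of all 15 libraries over the 13585 genes tested in it. The change of MRC5 cells with H196 minus that of H196 cells with MRC5 was negative and called for 37 members, and positive and called for 0, against 27.1% and 24.1% of all genes. Beyond the fold limit 29 were negative and 0 positive, against 12.6% and 12.1%. The median was -0.82, and all 39 values were negative. The values ran from -1.29 ± 0.14 for MCM10 (adjusted p = 1.25e-08) to -0.13 ± 0.12 for CDT1 (adjusted p = 0.352), and CCNE1 at -0.26 ± 0.16 (adjusted p = 0.196) was the other member not called. RRM1, at -0.27 ± 0.08 (adjusted p = 0.00773), was not called without MRC5_CoH196 replicate 2 (-0.19, adjusted p = 0.0804). E2F1, which fell in MRC5_CoH196 and rose in H196_Co, was at -0.91 ± 0.13 (adjusted p = 1.50e-06). These contrasts share the MRC5_CoH196, MRC5_Mo and H196 libraries with those above.

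The 2 lines differed in the members before any co-culture. In MRC5_Mo against H196_Mo, 35 members were lower, 2 were higher (RRM1 and TK1) and 2 were not called (GINS4 and CCNE1), against 44.0% of all genes lower and 42.6% higher. Beyond the fold limit 28 were lower and 0 higher, against 31.5% and 30.2%. The median was -0.99, or 1.98-fold lower. The summed level of MCM2 to MCM7 was 180, 199 and 214 FPKM in MRC5_Mo and 721, 755 and 761 FPKM in H196_Mo. E2F2 differed most, with 0.57, 0.62 and 0.55 FPKM in MRC5_Mo and 12.7, 12.0 and 13.4 FPKM in H196_Mo, at -3.95 ± 0.10 (adjusted p = 5.82e-24). PRIM1 at -2.44 ± 0.08 and CDT1 at -2.09 ± 0.08 were next. RRM1 was at 0.54 ± 0.06 (adjusted p = 1.89e-09) and TK1 at 0.24 ± 0.07 (adjusted p = 0.0045). For TK1 the FPKM values lay the other way, at 122 ± 11.4 in MRC5_Mo and 140 ± 9.42 in H196_Mo (SD, n = 3), and limma on log2(FPKM + 1) gave -0.19 (adjusted p = 0.0251). On that scale the median of all genes was -0.34, and RRM1 was at 0.10 (adjusted p = 0.141). The counts of the lines were deposited in separate tables, and by the authors' methods the lines were grown in different media. Cell line, medium and table therefore cannot be told apart.

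By mean FPKM the most abundant members in MRC5_Mo were TK1 (122 ± 11.4), PCNA (109 ± 8.33), TYMS (89.5 ± 4.66), MCM7 (77.9 ± 7.69) and RRM2 (55.8 ± 5.98). In each MRC5_Mo library TK1 lay above PCNA and TYMS above MCM7, although the ranges over libraries overlapped within each pair. These orders were not tested. In H196_Mo the order was MCM7 (389 ± 18.2), TYMS (301 ± 7.30), PCNA (216 ± 9.98), RRM2 (149 ± 5.53) and TK1 (140 ± 9.42). MCM7 stood clear of the rest there, while RRM2 and TK1 lay within their SDs. E2F2 was the lowest member in MRC5_Mo (0.58 ± 0.0361) and CCNE1 in H196_Mo (5.38 ± 0.590).

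**Figure D4:**
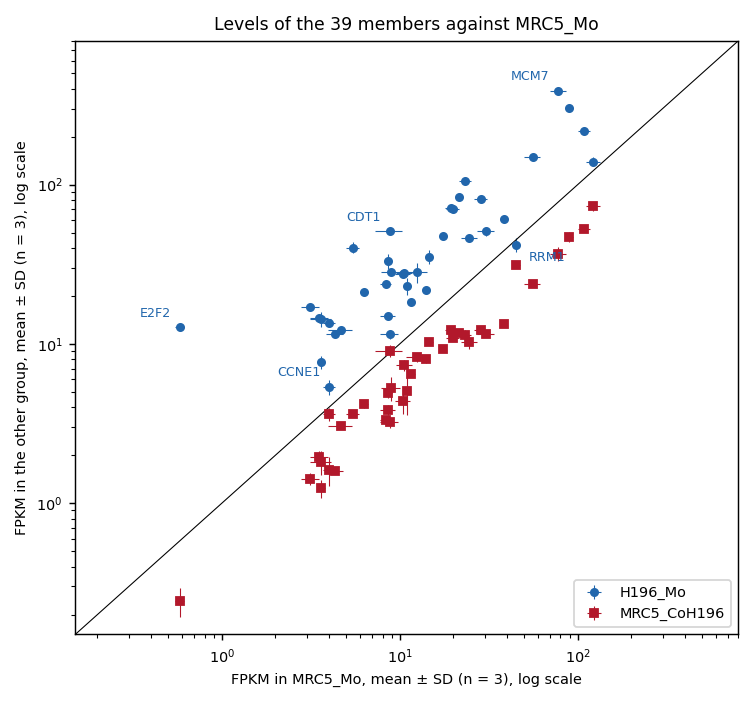
Mean FPKM with SD (n = 3, log scales) of the 39 members in MRC5_Mo (x axis) against H196_Mo and MRC5_CoH196 (y axis), with the line of equal levels. The H196_Mo points lie above the line apart from RRM1, with E2F2 farthest from it (0.58 against 12.7), and the MRC5_CoH196 points lie below it apart from CDT1. In the test on TMM-scaled counts TK1 was instead higher in MRC5_Mo than in H196_Mo, and GINS4 and CCNE1 were not called.

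Other genes of the pathway were counted by lists, beside 37.1% of all genes lower and 37.2% higher in MRC5_CoH196 against MRC5_Mo. In MRC5_CoH196, 25 of 35 other replication factors fell and 5 rose, from DSCC1 (-1.37 ± 0.19), a subunit of an alternative clamp loader, to POLD4 (0.49 ± 0.06), a small polymerase subunit. Of 12 other genes of nucleotide supply 8 fell and 3 rose. The lowest was CTPS1 (-1.16 ± 0.06), CTP synthase, and the highest RRM2B (0.82 ± 0.05), the p53-induced counterpart of RRM2, which went from 13.9, 14.0 and 13.2 FPKM in MRC5_Mo to 20.8, 23.4 and 20.2 FPKM. RRM2 and RRM2B thus moved in opposite directions. Of 10 genes of histone supply and chromatin replication 9 fell and 0 rose, with the histone chaperone ASF1A lowest (-0.91 ± 0.07).

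Most genes of mitosis and G2 fell too, while the other regulators of G1/S were called in shares near those of all genes. In MRC5_CoH196, 19 of 20 mitosis genes fell, with a median of -0.63 and CCNB1, the mitotic cyclin, lowest (-1.06 ± 0.05). The kinase gene CDK1 rose by 0.15 ± 0.06 (adjusted p = 0.0269), with overlapping groups. Of 26 other G1/S genes 11 fell and 10 rose, beside 37.1% and 37.2% of all genes. The lowest was E2F8 (-1.61 ± 0.18), an E2F repressor that is itself made in S phase, and the highest CDKN1A (0.91 ± 0.04), the cyclin-dependent kinase inhibitor p21. CDKN1A had 602, 606 and 588 FPKM in MRC5_Mo, 622, 647 and 625 FPKM in MRC5_CoH69 and 1032, 962 and 994 FPKM in MRC5_CoH196. Its MRC5_CoH196 libraries stood far above the others.

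In MRC5_CoH69 the mitosis list held the largest share of calls, with 19 of 20 lower and a median of -0.24 (CDC20, an activator of the anaphase-promoting complex, was lowest at -0.29 ± 0.06). Only 5 of 35 other replication factors, 1 of 12 genes of nucleotide supply and 2 of 10 histone and chromatin genes fell there, and of 26 G1/S genes 3 fell and 1 rose, beside 2.93% of all genes lower and 3.78% higher. In H196_Co, 3 of 35 other replication factors, 1 of 12 nucleotide genes, 0 of 10 histone and chromatin genes and 4 of 25 G1/S genes fell, beside 7.78% of all genes, and 1 G1/S gene, E2F5, rose (0.38 ± 0.10), beside 12.0%. The counts of replication and nucleotide genes were near the share over all genes. Of the mitosis genes there, CDC20 rose (0.33 ± 0.07, adjusted p = 0.00295) and 0 of 20 fell.

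**Figure D5:**
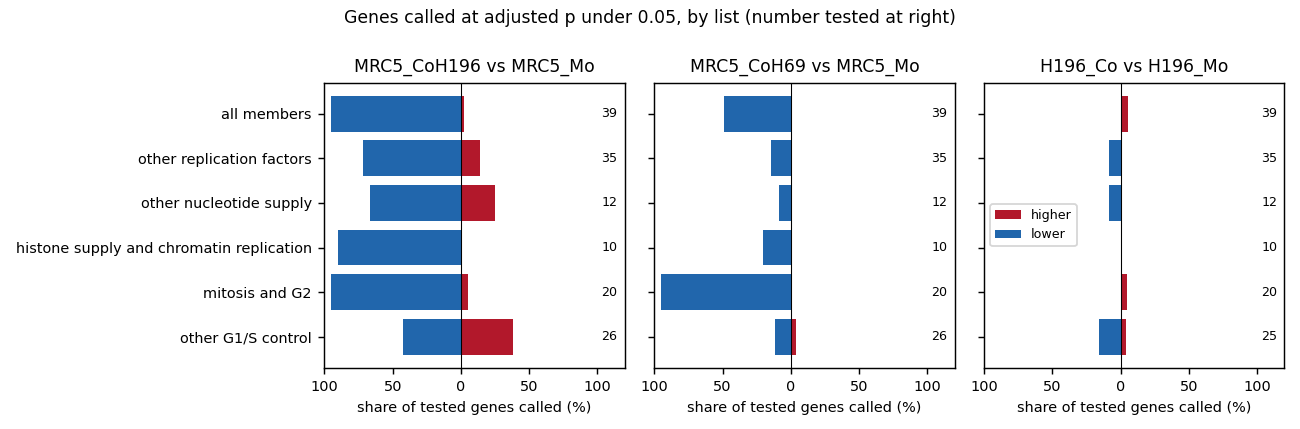
Share of the tested genes of each list (x axis, percent) that were called higher (right, red) or lower (left, blue) in 3 comparisons, with the number tested at the right. Members and mitosis genes are mostly lower in MRC5_CoH196 (37 of 39 and 19 of 20) and in MRC5_CoH69 (19 of 39 and 19 of 20), and few genes of any list are called in H196_Co.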

How the data were processed

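RNA of 15 libraries was sequenced on a BGISEQ instrument. Read cleaning by the authors used SOAPnuke. Alignment used HISAT for the genome (GRCh38.p13) and Bowtie2 for the reference transcripts, and their processing notes name HISAT2 2.1.0, Bowtie2 2.3.4.3 and RSEM 1.3.1. The deposited expected counts are not normalized (93.676% and 92.123% of the values in the MRC5 and H196 tables had no fractional part as written, with no tolerance), and the authors' FPKM values are scaled by gene length and depth. The authors' own comparisons, held in the tables as log2 fold changes with p-values, were not used, nor were 30 columns of other per-library values.

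Expected counts were rounded and tested in R 4.3.3 with edgeR 4.0.16 (filterByExpr, TMM factors 0.916 to 1.05, quasi-likelihood fits, two-sided tests) over the 9 MRC5 libraries, the 6 H196 libraries, or all 15 over shared genes. P-values were adjusted over all genes tested. Calls needed an adjusted p under 0.05, with an absolute log2 fold change above 0.58 as a stricter rule. An exact permutation test of 3 against 3 libraries cannot give a p under 0.1. Alternatives were DESeq2 1.42.0, limma 3.58.1 on log2 FPKM with a pseudocount of 1 or 0.1, other filters and size factors, a replicate block, fits of the 2 groups alone and each library left out. The 99 genes used to look for H196 RNA had at least 20 CPM in H196_Mo and under 0.5 CPM in MRC5_Mo, and the 160 genes of MRC5 RNA were chosen the other way round. Intervals and errors do not cover differences between cultures where libraries are technical. The members and lists were chosen with earlier results of these data known. Library values were given for a fixed set of S-phase genes and for the member of each role group that changed most. In other lists the lowest and highest called genes were named, and all further names were chosen after their values were seen. E2F2 was given no gene coordinates from the deposited table, whose row for it mixes contigs, and its promoter coordinates are those of RefSeq.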

Additional observations from a re-analysis of the deposited data

Results flagged for a closer look

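The effect of co-culture differed between the MRC5 and the H196 side, by a test of the difference itself, for 37 of the 39 members. All of these were more negative in MRC5 cells, against 27.1% of all genes called negative and 24.1% positive. The effect differed between the partners of MRC5 cells for 33 members, with 32 lower and 1 higher in MRC5_CoH196 than in MRC5_CoH69. Such calls were frequent, with 36.6% of all genes lower and 35.7% higher. CDT1 fell with H69 cells and rose with H196 cells, and the difference was 0.58 on the log2 scale, although the rise and the fall against MRC5_Mo both depended on the test and on single libraries, and the fall was -0.22 (adjusted p = 0.219) without MRC5_Mo replicate 3. E2F1 fell in MRC5 cells with H196 and rose in H196 cells with MRC5, with a difference of -0.91 between the effects.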

How the results depend on the processing

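In MRC5_CoH196 against MRC5_Mo, 37 members stayed lower in every refit, and 27 with the fold limit. The count of higher members was 0 with the fold limit, DESeq2, limma at either pseudocount and the 2 groups alone, and 0 to 1 with a library left out. The median was -0.93 with limma on log2(FPKM + 0.1) and -0.79 to -0.72 with a library left out. In MRC5_CoH69 the count of lower members was 0 with the fold limit, 10 with limma at either pseudocount and 5 to 28 with a library left out. In MRC5_CoH196 against MRC5_CoH69, the fold limit left 19 lower and 0 higher. Limma at either pseudocount called 38 members, against 33 in the main fit. The median was -0.64 and -0.69 with limma and -0.57 to -0.49 with a library left out. In H196_Co, 0 were higher with the fold limit and 1 to 2 with a library left out. Lower members numbered 2 with limma at either pseudocount and 0 to 1 with a library left out, and the median was -0.0915 and -0.0949 with limma. DESeq2 also called RRM2 higher (adjusted p = 0.0405).

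In MRC5_Mo against H196_Mo the higher members numbered 0 with the fold limit and with limma at either pseudocount, and 1 to 2 with a library left out. The median was -1.40 and -1.42 with limma, where all genes lay at -0.34 and -0.44. GINS4 (-0.36 and -0.39), TK1 (-0.19 and -0.19) and CCNE1 (-0.34 and -0.41) were there lower in MRC5_Mo, against the direction by TMM. Limma put the median of all genes at -0.13 and -0.18 in MRC5_CoH196 against MRC5_Mo, and RFC4 and RRM1 at -0.50 and -0.51 with the pseudocount of 0.1. E2F2 was at -0.35 there with a pseudocount of 1. The causes were not tested. Over the single members, 66 of the refits in MRC5_CoH69 lost a call and 19 gained one, against 8 and 0 in MRC5_CoH196.

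Within each cell line, libraries with the same replicate number did not deviate together (correlations -0.151 to 0.081). With 3 libraries a group this check cannot exclude pairing, and it did not set MRC5 against H196 libraries. With the replicate block 38, 18, 33, 2, 37 and 37 members were called in MRC5_CoH196, MRC5_CoH69, their contrast, H196_Co, the cell lines and the interaction, of which 17 of the 18 in MRC5_CoH69 were also called without it. With 3 libraries a group, the size of difference that was called varied between members. In MRC5_CoH69 RRM1 was called by edgeR at -0.16 (adjusted p = 0.0419) and PRIM1 at -0.37 was not (adjusted p = 0.0686). A member that missed the threshold is not shown to be equal.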
